A study of Mus musculus with 8 samples.

Results

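Axon guidance ligands and receptors were read out in immortalized mouse dental papilla cells with and without Bmp2. The members are the class 3 to 7 semaphorins and their plexin and neuropilin receptors, the Eph receptors and ephrins, the Slits and Robos, and the netrins and Unc5 receptors, chosen by gene symbol. By this rule 68 of the 22609 genes in the tables are members, and 52 of them passed the filter on low counts, among 13121 genes that passed. The floxed line (iBmp2 fx/fx) carries floxed Bmp2 alleles, and the knock-out line (iBmp2 ko/ko) carries the deletion. Both are dental papilla cell lines that were immortalized, and the sources used here do not state how many clones each line comprises. Each line gave 4 libraries of total RNA, 1 each after 6, 24, 48 and 72 h in culture. The genotypes were compared over 6 of these 8 libraries, those of 6, 48 and 72 h, so that libraries of different times stand in for replicates and their spread includes any change with time. Since no label says that the libraries came from separate cultures, the p-values measure only the spread between these libraries.

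These molecules were named for steering growing axons, but mesenchymal, endothelial and epithelial cells make them too. Semaphorins bind plexins, and most secreted class 3 semaphorins do so with a neuropilin as co-receptor. Ephrins are held in the membrane of one cell and bind Eph receptors on its neighbour. Slits bind Robos, and netrins bind Dcc and neogenin or, for repulsion, the Unc5 receptors. In the tooth, semaphorin signals from the mesenchyme are known to time and place the ingrowth of sensory nerves.

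Between 25890110 and 32415665 reads per library fell on genes, and 3 reads, the smallest level treated here as detectable, corresponded to 0.0925 to 0.116 CPM (counts scaled to library size and given per 1000000 reads). Such floors cover counting error only. A single read of Bmp2 itself was counted, at 24 h in the floxed cells, and none in the other 7 libraries, so it does not check the genotype labels. Of 12 dental mesenchyme markers 10 passed the filter, with Prrx1, Twist1 and Lhx6 in every library, while Lhx8 and Barx1 had at most 1 read per library. Dspp, one of the odontoblast markers, had at most 1 read. Alpl, a phosphatase of mineralizing cells, was lower in the knock-out cells at the adjusted limit described below, with a log2 fold change of -5.61 (SE 0.72, adjusted p = 0.015), at 12.6 to 63.6 CPM in the floxed and 0.550 to 1.40 CPM in the knock-out libraries of 6, 48 and 72 h. Dlx2, a transcription factor of dental mesenchyme, had a log2 fold change of -2.55 (SE 0.64, adjusted p = 0.12), and -2.91 (adjusted p = 0.0023) when a term for each culture time was fitted. That term also put Dlx1 past the limit, at -1.05 (adjusted p = 0.016). Among the others of the 10, Vim (0.72), Pax9 (0.53) and Col1a1 (0.32) had log2 fold changes above 0. Msx1 (-0.79), Msx2 (-0.47), Lhx6 (-0.36), Twist1 (-0.30) and Prrx1 (-0.16) lay below 0, and the median over the 10 was -0.33. The summed dental mesenchyme markers, mostly Col1a1 and Vim, stood at 5093 to 5267 CPM in the floxed libraries of 6, 48 and 72 h. In the knock-out libraries of these times the sum was 5571 to 8180.5, and at 24 h the sums were 5433 and 4789. Of the 26 markers of neurons, glia, endothelium, epithelium and immune cells, 7 passed the filter. Rbfox3, Snap25, Sox10, Emcn, Krt5, Ambn and Ptprc, which define those cell types, had at most 3 reads in any library. Of those that passed, Kdr, Krt14, Cd68 and Csf1r were lower in the knock-out cells at the unadjusted limit, with log2 fold changes of -1.32, -1.39, -1.43 and -1.62, and past the adjusted limit with the culture-time term (adjusted p = 0.017, 0.041, 0.027 and 0.012 in edgeR). Over the libraries of 6, 48 and 72 h, the summed immune markers stood at 4.48 to 14.2 CPM in the floxed and 2.77 to 3.43 in the knock-out cells, the endothelial at 1.55 to 2.93 and 0.842 to 1.13, and the epithelial at 1.04 to 1.81 and 0.281 to 0.895. The glial sum ran the other way, at 1.92 to 3.40 and 3.69 to 6.18 CPM, and the neuronal sum was 19.8 to 43.3 and 41.7 to 58.8, with overlap. Nearly all of the neuronal sum was Tubb3, at 19.5 to 43.2 and 41.6 to 58.4 CPM. The other neuronal markers had at most 6 reads in any library. At 24 h the sums of the floxed library and the library labelled knock-out were 5.60 and 6.34 CPM for immune, 1.75 and 2.15 for endothelial, 0.750 and 1.78 for epithelial, 24.7 and 18.8 for neuronal and 3.93 and 3.48 for glial markers. Among the pericyte markers, Cspg4 had 29, 26 and 16 reads in the floxed and 4 in each knock-out library of 6, 48 and 72 h. It passed the filter only through the floxed libraries, where it is high, so it had to differ to be tested. edgeR called it lower at the adjusted limit (log2 fold change -2.37, SE 0.44, adjusted p = 0.044). Rgs5 had at most 11 reads, and Pdgfrb and Acta2 had log2 fold changes of 0.49 and 0.80. The sum over the pericyte list was 791 to 1206 CPM in the floxed and 1042 to 1960.5 in the knock-out cells. The part of these markers in the results was not tested. In bulk RNA, fewer cells that express a gene and less RNA per cell cannot be told apart.

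The library labelled knock-out at 24 h stood apart from the other libraries of its label, and it is shown separately throughout. Its median absolute log2 CPM difference over the 52 tested members was 0.0940 from the floxed library of 6 h, and 0.503 to 1.11 from the 3 other knock-out libraries. The smallest such median among the 27 other pairs of libraries was 0.311. No member differed 2-fold or more between this library and the floxed library of 6 h, and at least 4 did so in every other pair. The 2 libraries were not identical, since a chi-square of their counts came to 4.97 per gene over all genes tested, where sampling alone gives about 1, and to at least 39.7 in every other pair. Of the 10 members described below as differing between the genotypes, 9 were nearer to the floxed mean than to the knock-out mean in this library, with Nrp1 as the exception.

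**Figure D1:**
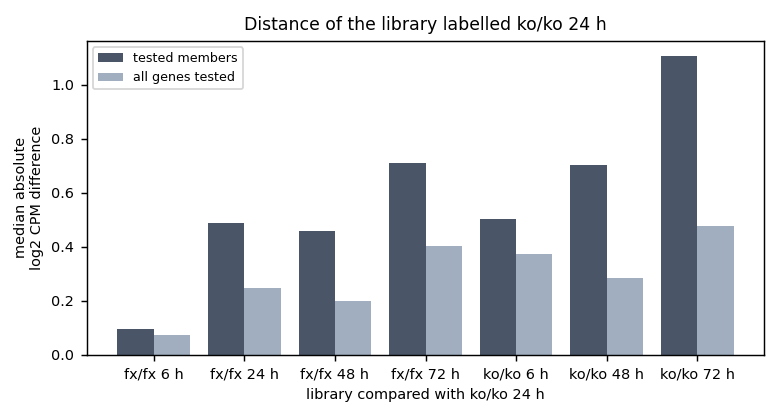
Median absolute log2 CPM difference (vertical axis) between the library labelled knock-out 24 h and each of the 7 other libraries (horizontal axis), for the tested members (dark bars) and all genes tested (light bars). The shortest bars belong to the floxed library of 6 h, at 0.0940 for the members and 0.0729 for all genes.

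The promoters of 5 members are shown because these are the members past the stricter limit of the genotype comparison described below. Each run is the 250 bases before the first annotated start in RefSeq (mouse build GRCm38.p6), written 5′ to 3′ in the direction of the gene. Capitals mark exact matches to GGCGCC and GGAGCC, 2 core motifs of BMP response elements bound by Smad proteins, on either strand, so that GGAGCC on the other strand reads GGCTCC.
Unc5b, chr10:60831582-60831831, minus strand: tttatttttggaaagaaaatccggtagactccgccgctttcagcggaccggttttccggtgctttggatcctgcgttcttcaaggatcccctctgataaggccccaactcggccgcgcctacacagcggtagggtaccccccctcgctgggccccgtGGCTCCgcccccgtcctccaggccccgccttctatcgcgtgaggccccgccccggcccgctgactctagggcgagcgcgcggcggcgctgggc
Unc5c, chr3:141465314-141465563, plus strand: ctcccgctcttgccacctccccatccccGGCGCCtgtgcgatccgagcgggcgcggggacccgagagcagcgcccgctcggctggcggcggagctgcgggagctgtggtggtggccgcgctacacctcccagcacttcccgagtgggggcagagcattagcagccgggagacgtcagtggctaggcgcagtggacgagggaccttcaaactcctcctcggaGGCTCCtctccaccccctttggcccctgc
Sema3g, chr14:31217623-31217872, plus strand: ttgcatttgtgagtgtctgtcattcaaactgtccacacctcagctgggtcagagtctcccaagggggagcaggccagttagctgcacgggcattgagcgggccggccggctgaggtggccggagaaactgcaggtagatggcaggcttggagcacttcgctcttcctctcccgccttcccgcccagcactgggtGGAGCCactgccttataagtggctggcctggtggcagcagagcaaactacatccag
Sema6d, chr2:124089719-124089968, plus strand: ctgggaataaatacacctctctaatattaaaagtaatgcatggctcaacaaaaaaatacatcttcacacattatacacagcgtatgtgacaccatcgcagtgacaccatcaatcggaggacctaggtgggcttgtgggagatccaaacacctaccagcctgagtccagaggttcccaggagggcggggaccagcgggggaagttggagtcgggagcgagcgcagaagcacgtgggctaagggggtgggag
Epha4, chr1:77515089-77515338, minus strand: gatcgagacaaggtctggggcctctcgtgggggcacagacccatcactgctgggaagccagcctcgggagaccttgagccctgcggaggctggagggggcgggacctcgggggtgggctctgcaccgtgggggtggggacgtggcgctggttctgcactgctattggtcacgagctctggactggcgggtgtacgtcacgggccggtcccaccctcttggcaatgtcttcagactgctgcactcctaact
In the full windows, which add the first 50 bases after the start, GGCGCC was present in the first window of 2 of the 10 members described below (Sema6b and Unc5c), in the second window of Efna3, and in 11.96% of the first windows of 27025 genes. GGAGCC was present in the first window of 6 of the 10 and in 30.5% of all first windows. The Smad box GTCTAGAC was in none of the 10 and in 0.211% of all. The windows shown of Epha4 and Sema6d held neither core motif, and the other 3 each held GGAGCC. A match is a description of the sequence, not a binding site.

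On a per-length scale, 14 members averaged at least 10 RPKM (CPM per kilobase of exon) over the 6 libraries, 23 averaged between 1 and 10, and 30 were below 1. Efna5 has more than one gene model under its symbol and was given no level per length. Plxnb2, a receptor of class 4 semaphorins, was the highest at 117 RPKM, followed by Unc5b at 61.7, Nrp2 at 28.7, Ephb4 at 25.5 and Plxna1 at 25.1. These means pool the genotypes, and Unc5b stood at 96.7 ± 12.9 (SD, n = 3) RPKM in the floxed and 26.6 ± 9.42 (SD, n = 3) in the knock-out cells, where Nrp2 stood at 27.4 ± 5.86 (SD, n = 3). Plxnb2 alone made up 67.0 to 72.4% of the summed plexin level in every library. The most abundant ligands over both genotypes were Efna1 at 18.4 RPKM, Slit2 at 15.2, Ntn1 at 14.8 and Sema3f at 14.6. In the floxed cells Efna1 led them at 23.6 ± 7.16 (SD, n = 3) RPKM, and in the knock-out cells it stood at 13.2 ± 3.93 (SD, n = 3), with Sema3f at 16.01 ± 5.51 (SD, n = 3), Slit2 at 15.1 ± 8.93 (SD, n = 3) and Ntn1 at 13.4 ± 2.89 (SD, n = 3), 4 means that lie within their spread. The other leading members of their families were Epha2 at 16.6 RPKM, Efnb2 at 7.04, Sema4b at 6.19 and Robo3 at 0.190.

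Both sides of several ligand and receptor pairs were present, but not of all. Slit2 and Slit3 were well expressed, whereas Robo1 and Robo2 had at most 1 read and Robo4 at most 3 reads in any library. At 6, 48 and 72 h the summed Slit level was 13.4 to 26.8 RPKM in the floxed cells and 10.2 to 38.2 in the knock-out cells, against 0.0525 to 0.586 and 0.0132 to 0.199 for the Robos. Dcc, the attractive netrin receptor, had no read in any library, and neogenin (Neo1) stood at 405, 421 and 231 CPM in the floxed cells and 248.8, 341 and 176 in the knock-out cells at 6, 48 and 72 h, with a log2 fold change of -0.45 (SE 0.33, adjusted p = 0.63), or -0.45 (adjusted p = 0.033) with a term for each culture time, under the fold limit either way. In all, 16 members did not pass the filter. Of these, 11 had at most 3 reads in every library, Epha5 and Ephb1 among them with none at all. The highest count of an untested member was 26 reads, for Epha8 in the knock-out library of 48 h.

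**Figure D2:**
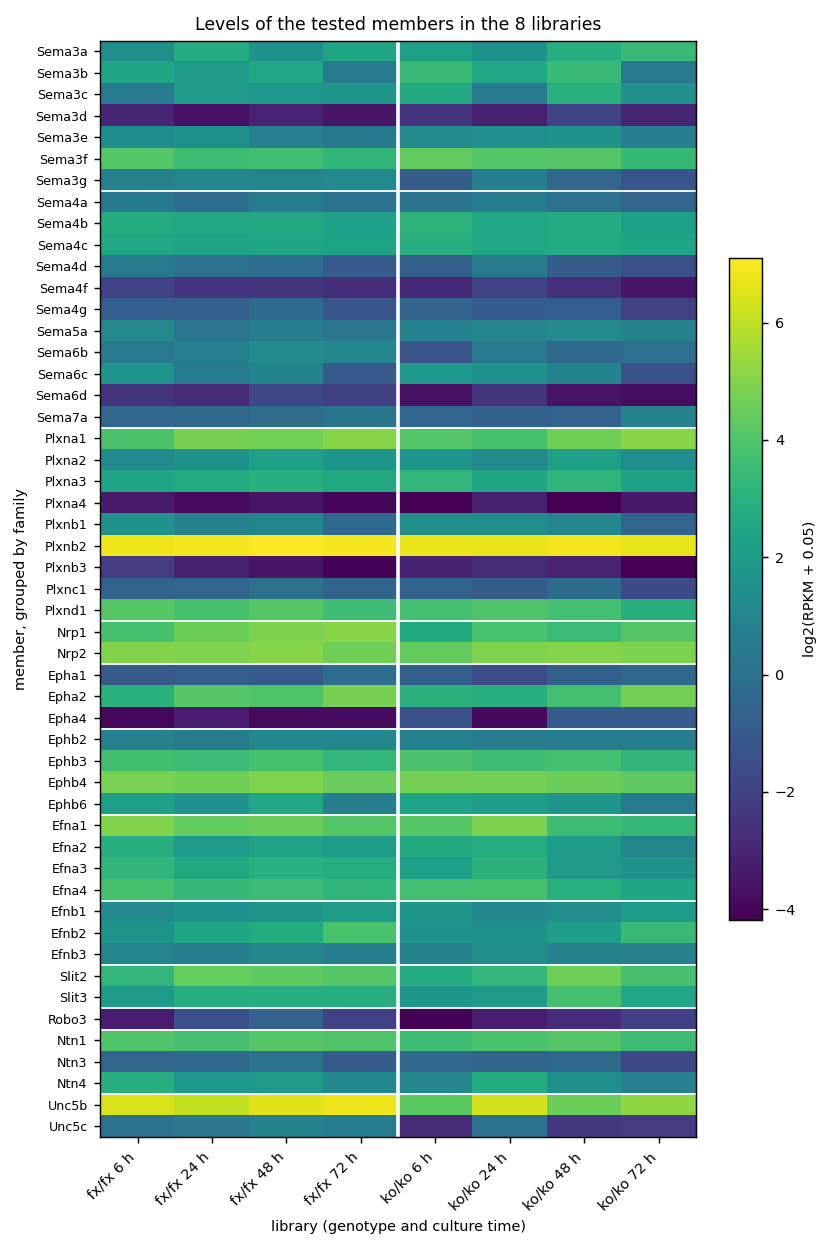
Level of the tested members with a length (rows, white lines between families) in each of the 8 libraries (columns), as log2 of RPKM plus 0.05, on a colour scale from dark (low) to yellow (high). Plxnb2 and Unc5b are the brightest rows, Unc5b is darker in the knock-out libraries of 6, 48 and 72 h than in that of 24 h, and Epha4 is dark in all but those 3.

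A minority of the members differed between the floxed and the knock-out cells. With edgeR's quasi-likelihood test and Benjamini-Hochberg adjustment over all genes tested, at an absolute log2 fold change of at least 1 and an adjusted p of at most 0.05 (the adjusted limit), 1 member was higher in the knock-out cells (Epha4) and 4 were lower (Unc5b, Unc5c, Sema3g and Sema6d). Epha4 passed the filter only through the knock-out libraries, and Sema6d met its cutoff in the 3 floxed libraries, which suffice, and in 1 knock-out library. Over all genes tested, 0.899% were higher and 1.29% lower at this limit. At an absolute log2 fold change above 1 and an unadjusted p under 0.05 (the unadjusted limit), 3 members were higher and 7 lower, beside 3.31% and 4.04% of all genes. That limit added Sema3a and Sema3d among the higher members and Nrp1, Sema6b and Efna3 among the lower. When the fit included a term for each culture time (a block), these 10 members and no others were past the adjusted limit, while 3.78% of all genes were called higher and 4.67% lower. The median log2 fold change was -0.19 over the 52 members, of which 31 were lower, and 0.03 over all genes, of which 6089 were lower.

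These counts changed with the libraries used. Without the floxed or the knock-out library of 48 h no member passed the adjusted limit, where 0.0226% and 0.0225% of all genes were higher and 0.0827% and 0.0451% lower, and 1 higher and 6 lower members passed the unadjusted limit in either case, beside 2.79% and 3.08% of all genes without the floxed and 2.64% and 4.5% without the knock-out library. Leaving out floxed 6 h, floxed 72 h or knock-out 6 h left 1 higher and 1 lower member past the adjusted limit. Of all genes, 0.188%, 0.389% and 0.27% were then higher and 0.473%, 0.801% and 0.405% lower. Over all 8 libraries, with the 24 h pair included, no member was called at the adjusted limit (Epha4 did not pass the filter there), beside 0% of all genes in either direction, and 1 higher and 5 lower members were called at the unadjusted limit, beside 2.08% and 1.47% of all genes. Among the 52 tested members, the 3 knock-out libraries lay all above the 3 floxed libraries for 1, Epha4, beside 9.04% of all genes. They lay all below for 6 members (Unc5b, Unc5c, Sema3g, Sema6b, Sema6d and Efna3), beside 11% of all genes.

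**Figure D3:**
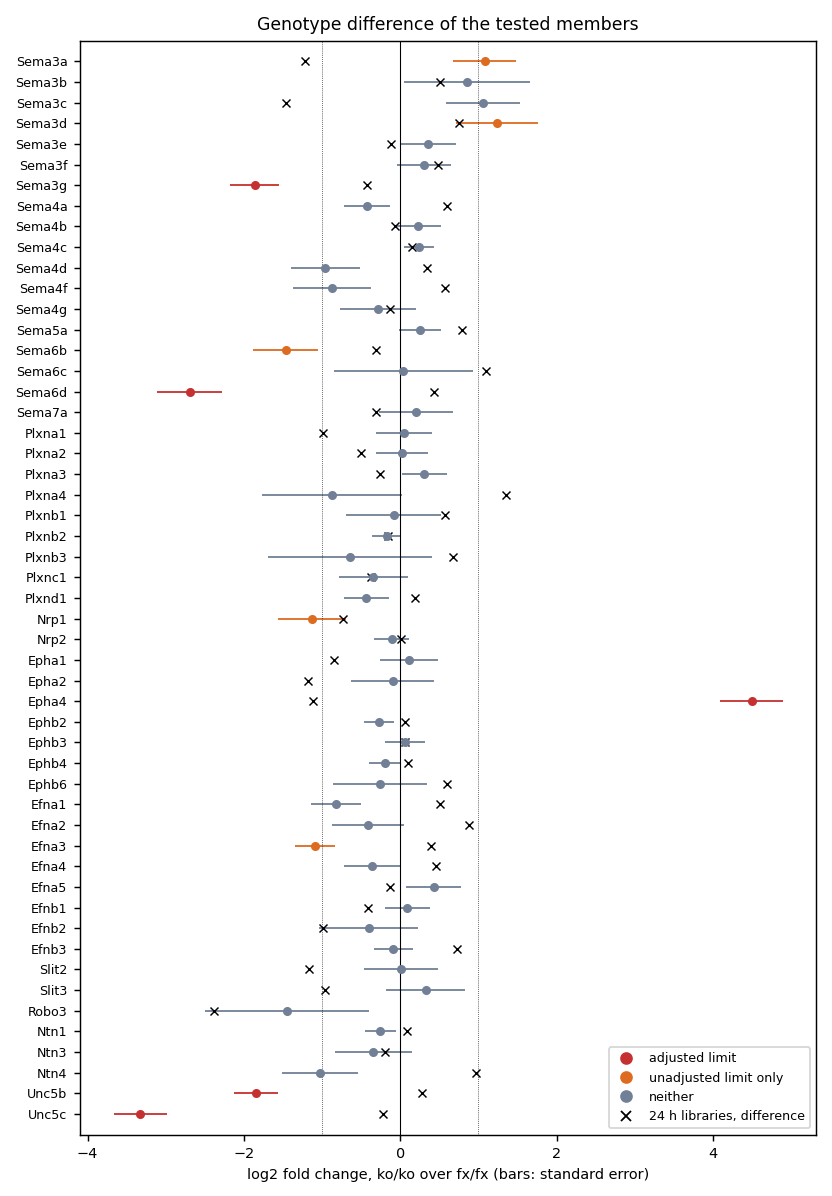
Log2 fold change of each tested member in the knock-out over the floxed cells (dots, horizontal axis, bars for the standard error), coloured by the limit passed, with the log2 CPM difference of the 24 h libraries as crosses. Epha4 lies at 4.49 and Unc5c at -3.32, and both crosses lie far from their dots.

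Unc5b and Unc5c, the 2 Unc5 receptors that passed the filter, were lower in the knock-out cells. Unc5 receptors bind netrins and also have roles in cell survival. Unc5b (chr10:60225358-60294329, minus strand in mm9) stood at 499.8, 549.9 and 648 CPM in the floxed cells at 6, 48 and 72 h, and at 112, 137 and 218 in the knock-out cells. Every knock-out library of these times was below every floxed library. edgeR gave a log2 fold change of -1.85 (SE 0.28, adjusted p = 0.023). At 24 h the values were 389 CPM in the floxed library and 470.3 in the library labelled knock-out, so the pair did not show this difference.

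Unc5c (chr3:141128528-141497888, plus strand), the related receptor, stood at 12.4, 19.97 and 17.5 CPM in the floxed cells at 6, 48 and 72 h. In the knock-out cells it stood at 1.09, 1.78 and 2.05 CPM, without overlap. This came to a log2 fold change of -3.32 (SE 0.34, adjusted p = 0.0089), and the median over all tested genes of chromosome 3 was -0.39. At 24 h it stood at 14.5 CPM in the floxed library and 12.4 in the library labelled knock-out, the order in which the 24 h values of the other members are given. Unc5a and Unc5d had at most 1 read in any library. The summed Unc5 level, at least 98.2% of it from Unc5b, was 86.4 to 112 RPKM in the floxed cells and 19.3 to 37.4 in the knock-out cells of 6, 48 and 72 h, and 67.6 and 81.4 at 24 h.

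Their ligands did not pass either limit. Ntn1, the leading netrin, stood at 99.99, 106 and 99.8 CPM in the floxed cells and 74.7, 105 and 73.2 in the knock-out cells at 6, 48 and 72 h, and the groups overlapped. Its log2 fold change was -0.26 (SE 0.19, adjusted p = 0.65). The exons of Ntn1 share 127 bases with another gene on the same strand. Ntn4, which binds laminin in basement membranes, stood at 27.6, 13.5 and 7.78 CPM in the floxed cells and 7.49, 10.4 and 5.98 in the knock-out cells, with a log2 fold change of -1.02 (SE 0.48, adjusted p = 0.41). The 24 h libraries had 12.99 and 25.5 CPM. Ntn4 is named here after its values were seen.

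Among the secreted semaphorins, 6 of 7 had a log2 fold change above 0, and the exception was the one called at the adjusted limit. Sema3g (chr14:32031046-32043536, plus strand), a ligand that acts through Nrp2, stood at 7.33, 8.84 and 9.90 CPM in the floxed cells and 2.29, 3.04 and 1.72 in the knock-out cells. The groups did not overlap, and the log2 fold change was -1.86 (SE 0.31, adjusted p = 0.031). At 24 h the values were 9.25 and 6.86 CPM.

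Sema3a (chr5:13125593-13602565, plus strand), the repellent of sensory axons that acts through Nrp1, stood at 26.2, 30.2 and 56.2 CPM in the floxed cells at 6, 48 and 72 h and at 44.9, 77.9 and 112 in the knock-out cells. At each of these times the knock-out library was the higher one, although the groups overlapped. Its log2 fold change was 1.08 (SE 0.40, adjusted p = 0.29) and, with culture time as a block, 1.07 (adjusted p = 0.0023). The floxed library of 24 h, at 68.3 CPM, was nearer to the knock-out mean, and the library labelled knock-out of 24 h stood at 29.3.

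Sema3d was low, with 17, 15 and 8 reads in the floxed libraries of 6, 48 and 72 h and 27, 48 and 13 in the knock-out libraries. The log2 fold change was 1.24 (SE 0.52, adjusted p = 0.35) and, with the block, 1.20 (adjusted p = 0.049). Sema3f, the most abundant secreted semaphorin and a ligand of Nrp2, stood at 61.6, 43.7 and 32.2 CPM in the floxed cells and 73.7, 58.2 and 35.5 in the knock-out cells, with a log2 fold change of 0.30 (SE 0.34, adjusted p = 0.78). Sema3a, Sema3c, Sema3d and Sema3e lie within 4852921 bases of each other on chromosome 5 (chr5:12383166-17236086). The 27 other tested genes within 5 Mb of this stretch had a median log2 fold change of -0.063. Inside it lie 2 of them, Cacna2d1 and Hgf, both below 0, with a median of -1.48.

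Of the 11 tested membrane semaphorins, 2 were lower at one of the limits and none was higher. Sema6d (chr2:123915705-124493506, plus strand), a ligand of Plxna1, had 43, 84 and 60 reads in the floxed libraries of 6, 48 and 72 h and 9, 11 and 6 in the knock-out libraries. edgeR gave a log2 fold change of -2.69 (SE 0.41, adjusted p = 0.024). At 24 h it had 28 and 37 reads. Sema6b (chr17:56262508-56279766, minus strand), a ligand of the class A plexins, stood at 5.08, 9.24 and 8.05 CPM in the floxed cells and 1.42, 2.95 and 3.65 in the knock-out cells. The groups did not overlap, and the log2 fold change was -1.46 (SE 0.42, adjusted p = 0.17), or -1.51 (adjusted p = 0.0032) with the block. Sema4b, the most abundant of this group, stood at 36.02, 33.2 and 24.2 CPM in the floxed cells and 46.6, 36.8 and 25.03 in the knock-out cells, with a log2 fold change of 0.23 (SE 0.28, adjusted p = 0.8).

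None of the 9 plexins passed a limit, and their log2 fold changes ran from -0.87 to 0.31. Plxnb2 stood at 834, 1004 and 911 CPM in the floxed cells and 787, 872 and 747 in the knock-out cells, with a log2 fold change of -0.17 (SE 0.19, adjusted p = 0.76). Nrp1 (chr8:130882973-131029362, plus strand), which also binds VEGF-A, stood at 83.9, 172 and 201 CPM in the floxed cells at 6, 48 and 72 h and at 37.3, 66.5 and 104 in the knock-out cells. It was lower in the knock-out library at each of these times, although the knock-out library of 72 h stood above the floxed library of 6 h. This came to a log2 fold change of -1.12 (SE 0.44, adjusted p = 0.31) and, with the block, -1.15 (adjusted p = 8.3e-04).

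Nrp1 was also the only member called with the block over all 8 libraries, at a log2 fold change of -1.03 and an adjusted p of 0.0496 in edgeR, beside 0.215% of all genes called lower. At 24 h it stood at 141 and 84.9 CPM. Its exons share 80 bases with another gene on the same strand. Nrp2 stood at 294, 318 and 242 CPM in the floxed cells and 198, 303 and 282 in the knock-out cells, with a log2 fold change of -0.11 (SE 0.23, adjusted p = 0.88).

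**Figure D4:**
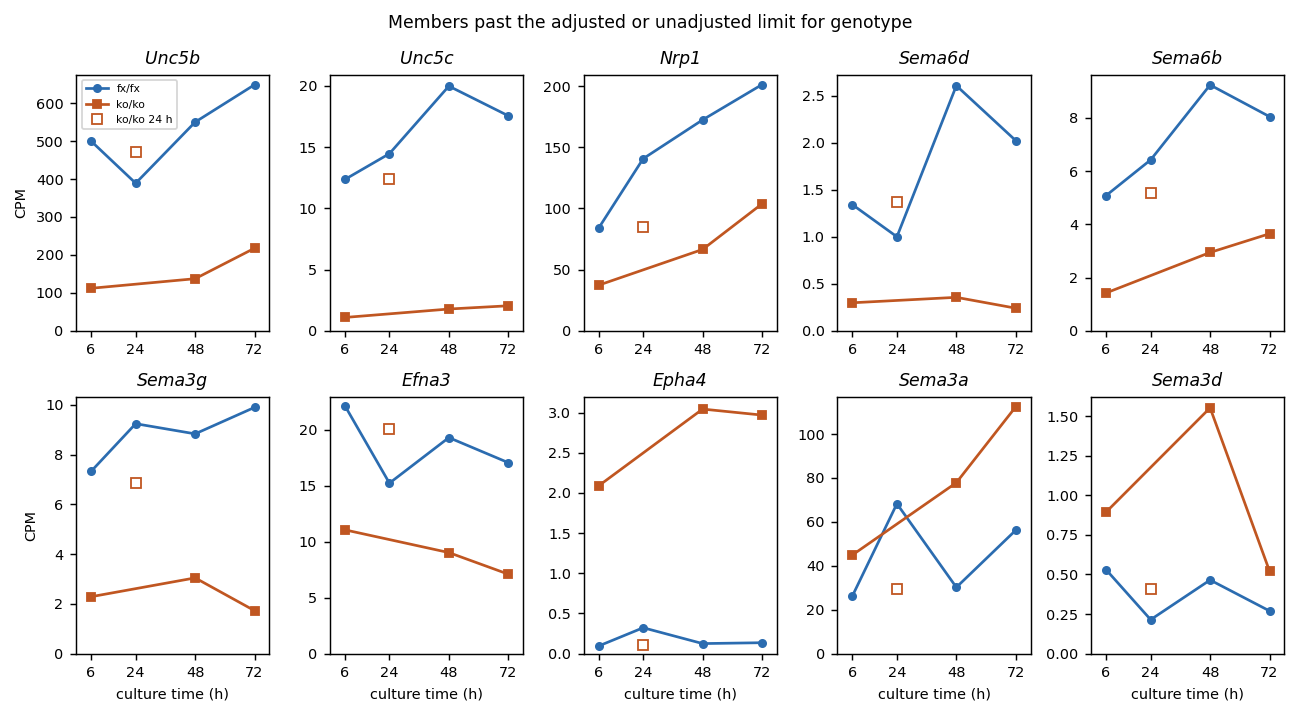
CPM (vertical axes, each from 0) by culture time in hours (horizontal axes) of the 10 members past either limit, with circles for floxed (fx/fx) cells, filled squares for knock-out (ko/ko) cells and an open square for the library labelled knock-out at 24 h. The open square lies with the circles for Unc5b, Unc5c, Epha4 and Efna3.

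Of the Eph receptors, 3 of 9 EphA and 4 of 5 EphB members passed the filter. Epha4 (chr1:77363760-77511663, minus strand), a receptor that binds ephrins of both classes, passed it only through the knock-out libraries, where it is high, so it had to differ to be tested. It had 3, 4 and 4 reads in the floxed libraries of 6, 48 and 72 h and 63, 94 and 74 in the knock-out libraries. At 24 h it had 9 reads in the floxed library and 3 in the library labelled knock-out. Its log2 fold change was 4.49 (SE 0.40, adjusted p = 0.0057). Summed over the libraries, 231 reads against 11 gave a ratio of 23.2 per read sequenced, with an exact 95% interval of 12.7 to 47.1 that covers counting error only.

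Epha2, a receptor of ephrin-A ligands that predominates among the EphA members, stood at 37.6, 73.6 and 130.4 CPM in the floxed cells and 38.7, 61.4 and 123 in the knock-out cells. The groups overlapped, and the log2 fold change was -0.10 (SE 0.53, adjusted p = 0.96). Ephb4, the receptor of ephrin-B2, stood at 133, 142 and 105 CPM in the floxed cells and 126, 109.7 and 92.9 in the knock-out cells, with a log2 fold change of -0.20 (SE 0.20, adjusted p = 0.75). Its exons share 33 bases with a gene on the opposite strand, and the strand setting of the counting is not given in the sources used here.

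Of the 5 ephrin-A ligands, 4 had a log2 fold change below 0, and 1 of them passed a limit. Efna3 (chr3:89117821-89126887, minus strand) stood at 22.2, 19.3 and 17.1 CPM in the floxed cells at 6, 48 and 72 h and at 11.1, 9.03 and 7.10 in the knock-out cells. The groups did not overlap. The log2 fold change was -1.09 (SE 0.25, adjusted p = 0.094) and, with the block, -1.10 (adjusted p = 0.0022). Its exons share 344 bases with a gene on the opposite strand, so its counts are uncertain to that extent. At 24 h it stood at 15.2 and 20.05 CPM.

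Efna1, the most abundant ephrin, stood at 56.8, 42.3 and 30.7 CPM in the floxed cells and 32.2, 22.2 and 18.2 in the knock-out cells, with a log2 fold change of -0.82 (SE 0.31, adjusted p = 0.31). With the block its log2 fold change was -0.82 (adjusted p = 0.0034), short of the fold limit. Efna1, Efna3 and Efna4 lie within 66296 bases on chromosome 3 (chr3:89075655-89141950). The 122 other tested genes within 5 Mb had a median log2 fold change of -0.32 and the 633 tested genes of the chromosome one of -0.39. The part of this shift in the ephrin values was not tested. Among the 3 ephrin-B ligands, Efnb2 stood at 15.002, 32.03 and 68.8 CPM in the floxed cells and 14.5, 20.5 and 51.3 in the knock-out cells, with a log2 fold change of -0.41 (SE 0.63, adjusted p = 0.85).

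Slit2 stood at 143, 294 and 254 CPM in the floxed cells and 103, 371 and 210.3 in the knock-out cells, which overlapped throughout. Its log2 fold change was 0.0060 (SE 0.47). Robo3, the only Robo that passed the filter, had 11, 128 and 40 reads in the floxed libraries of 6, 48 and 72 h and 2, 22 and 32 in the knock-out libraries. It was the 1 member whose 24 h libraries differed by at least 2 log2 units, with 62 reads in the floxed library and 10 in the library labelled knock-out. The log2 fold change over the 6 libraries was -1.45 (SE 1.05, adjusted p = 0.62).

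The log2 difference of the 24 h pair had the sign of the 6-library log2 fold change for 18 of the 52 tested members and the opposite sign for 34, beside 53.7% and 46.3% of all genes tested. A difference of 2-fold or more was seen for 8 members in the 24 h pair, against 14 in the 6 h pair, 13 in the 48 h pair and 12 in the 72 h pair. Over all genes tested the share was 6.19% for the 24 h pair, 12.7% for the 6 h pair, 11.3% for the 48 h pair and 9.82% for the 72 h pair. With 1 library per genotype and time, these counts have no replicate check.

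Change with culture time was tested as a slope common to both genotypes. Over the 7 libraries other than the one labelled knock-out at 24 h, edgeR called no member at an adjusted p of at most 0.05 for a slope on the log2 of hours, beside 0% of the 13208 genes tested. At an unadjusted p under 0.05 there were 10 members with a slope above 0 and 9 with a slope below 0, of 53 in this fit, beside 14.7% and 11.4% of all genes. DESeq2, which estimates the spread differently, called 8 members rising and 6 falling after adjustment, all 14 among those 19, beside 7.51% and 5.22% of all genes. Without the knock-out library of 48 h, edgeR called 5 rising and 5 falling after adjustment, beside 4.64% and 3.36% of all genes.

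Nrp1 had the smallest p, with a slope of 0.36 (SE 0.049) per doubling of time (adjusted p = 0.092 in edgeR and 8.7e-08 in DESeq2). Plxna1, a plexin receptor that pairs with it, had 137, 251, 234 and 302 CPM in the floxed cells from 6 to 72 h and 151, 226 and 312 in the knock-out cells at 6, 48 and 72 h. Its slope was 0.28 (SE 0.054), and its exons share 970 bases with a gene on the opposite strand. Epha2 had a slope of 0.42 (SE 0.08) and Efnb2 one of 0.49 (SE 0.10). In both genotypes the library of 72 h was the highest for these 2 members. Slit2, with 143, 326, 294 and 254 CPM in the floxed cells, had a slope of 0.34 (SE 0.12), and Slit3 one of 0.34 (SE 0.12). Robo3 had the steepest positive slope, 0.92 (SE 0.24).

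Among the members with a slope below 0, Sema3f had one of -0.22 (SE 0.057), Efna1 of -0.21 (SE 0.048), Efna2 of -0.29 (SE 0.089) and Efna4 of -0.23 (SE 0.062). Sema6c had 19.5, 8.17, 10.7 and 2.66 CPM in the floxed cells and 20.6, 10.8 and 2.01 in the knock-out cells, a slope of -0.58 (SE 0.18). Plxnb1, a receptor of Sema4d, had a slope of -0.37 (SE 0.13). The exons of Plxnb1 share 210 bases and those of Efna4 168 bases with genes on the opposite strand. Each of these 6 was also called by DESeq2, as was Sema6b, with a slope of 0.29 (SE 0.075). The others of the 19 were Unc5c at 0.21 (SE 0.062) and Sema3a at 0.28 (SE 0.12) above 0, and Plxnb3 at -0.64 (SE 0.22), Sema4d at -0.24 (SE 0.10) and Sema4b at -0.16 (SE 0.058) below 0. The members of this paragraph and the preceding one were named by their unadjusted p, after their values were seen, apart from those that lead their families or differ by genotype.

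**Figure D5:**
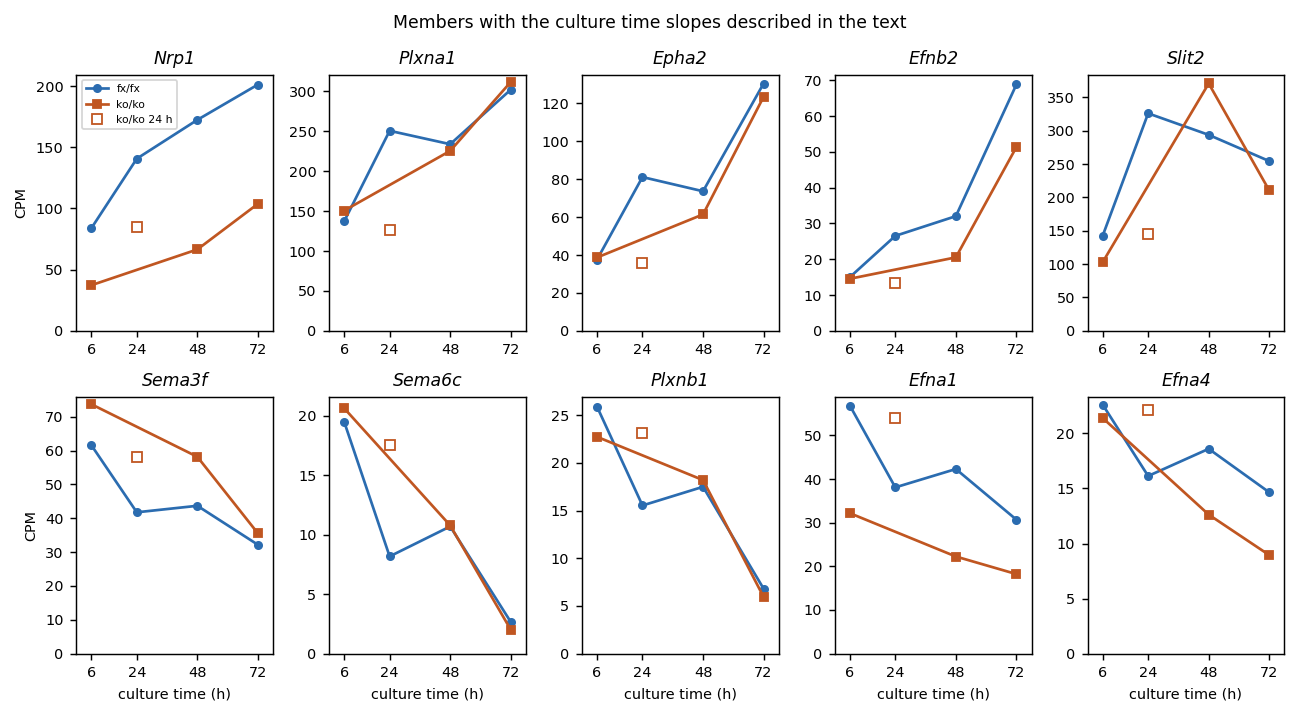
CPM (vertical axes, each from 0) by culture time in hours (horizontal axes) of 10 members, the upper row with slopes above 0 and the lower row with slopes below 0, with circles for floxed (fx/fx) cells, filled squares for knock-out (ko/ko) cells and an open square for the library labelled knock-out at 24 h. Circles and squares run close together for Plxna1, Epha2, Sema6c and Plxnb1, and the open squares lie near the 6 h circles.

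The genotypes did not differ in their slopes at an adjusted p of at most 0.05 for any member, beside 0% of all genes, and DESeq2 called none. At an unadjusted p under 0.05 the interaction was called for 1 member, Ntn4, beside 1.01% of all genes, and by DESeq2 for 2, beside 1.17%. Ntn4 stood at 27.6, 12.99, 13.5 and 7.78 CPM in the floxed cells and at 7.49, 10.4 and 5.98 in the knock-out cells at 6, 48 and 72 h, and the difference in slope was 0.46 (SE 0.19). Leaving out the knock-out library of 6 h raised the count to 11 of 53, beside 15.2% of all genes.

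Of 83 co-receptors, signalling proteins and proteases of the pathway, 71 passed the filter, and at the adjusted limit 1 was higher and none lower in the knock-out cells, beside 0.899% and 1.29% of all genes. The gene was Rgma, a ligand of neogenin and a co-receptor for BMPs, at 11.2, 18.7 and 13.9 CPM in the floxed cells and 43.5, 40.2 and 39.1 in the knock-out cells at 6, 48 and 72 h. The groups did not overlap, and the log2 fold change was 1.51 (SE 0.23, adjusted p = 0.024). At 24 h it stood at 16.1 and 10.4 CPM. At the unadjusted limit 4 were higher (Rgma, L1cam, Fes and Fhl2) and 6 lower (Kdr, Ngef, Tiam1, Vav3, Rnd1 and Dpysl3), beside 3.31% and 4.04% of all genes. With the block, 4 were higher and 8 lower at the adjusted limit, these 10 among them, beside 3.78% and 4.67% of all genes. Rnd1, which binds plexins, and Dpysl3, a collapsin response mediator, are among the lower ones, as are Ngef, Tiam1 and Vav3, exchange factors that act downstream of Eph receptors. Other exchange factors of the list passed neither limit, with log2 fold changes such as -0.43 (Vav2), -0.45 (Trio), -0.56 (Arhgef11), -0.41 (Arhgef12), 0.20 (Farp1) and 0.21 (Farp2). Rnd1, Ngef, Vav3, Dpysl3 and Tiam1 were picked after their values were seen. The log2 fold change of Dpysl3 was -1.58 (SE 0.31, adjusted p = 0.053), and with the block -1.62 (adjusted p = 7.5e-04). That of Tiam1 was -1.29 (SE 0.40, adjusted p = 0.21), and with the block -1.35 (adjusted p = 0.0011).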

How the data were processed

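RNA of both cell lines gave 8 libraries. Per the labels and the methods, the authors aligned reads to mm9 with TopHat2 2.0.8b and counted them with HTSeq, and they deposited whole-number counts per gene symbol without normalization. The annotation and strand setting are not given in the sources used here. The HTSeq summary rows were left out: 41.3 to 49.6% of alignments had several positions, which undercounts members with close copies. Tables of lncRNA counts were not used here. Groups and times came from the labels, and the deposited design text names 8 h where the labels name 6 h.

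The members and lists were chosen with earlier results of these data known. Counts of all genes were tested in R 4.3.3 with edgeR 4.0.16 (TMM, filterByExpr with at least 10 counts and 15 in total, quasi-likelihood test, Benjamini-Hochberg adjustment) for genotype over 6 libraries, and for a slope on log2 hours and its interaction with genotype over 7. No block was used in the main comparison, since the methods name none. Libraries of one culture time did pair: their deviations from the genotype means correlated at 0.71 (6 h), 0.54 (48 h) and 0.84 (72 h) within a time and at -0.70 to 0.17 across times, so the blocked value is given beside the members whose call it changes, and for the other pathway genes as a count. Alternatives were 7 or 8 libraries, the block, limma 3.58.1 (log2 CPM, offset 0.5), DESeq2 1.42.0, upper-quartile factors, a filter of at least 10 counts in every library or none, time in hours, and each library left out once. The genotype tests of edgeR (with and without the block), DESeq2 and limma, and edgeR's time slope, were first run on simulated counts. The interaction test and DESeq2's time slope were not.

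CPM used TMM factors over all 8 libraries, single-library log2 differences a prior count of 2, and RPKM the exon union of GENCODE M1 on mm9, matched by symbol for 67 of 68 members. Promoters are from RefSeq on GRCm38.p6, and their coordinates are not comparable with those on mm9. Named members were all past either genotype limit, the most abundant of each family, those whose time slope or interaction passed adjustment (none did), and those at least 2 log2 units apart at 24 h, with other pathway genes past the adjusted limit. Members named for a slope or interaction at an unadjusted p fall outside this rule. So do the pathway genes named only at the unadjusted limit, Dpysl3 and Tiam1 among them. These were chosen after their values were seen. Summaries used numpy 2.4.6 and pandas 2.3.3 in Python 3.11.15, and plots matplotlib 3.10.9.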

Additional observations from a re-analysis of the deposited data

Results flagged for a closer look

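In each genotype the 4 libraries of every named member were checked for one far from the others, by the gap to its nearest neighbour over the whole range, and 2 of 42 such groups exceeded Dixon's critical value. Chance gives about 1 in 20. Epha4 stood at 0.111 CPM in the library labelled knock-out at 24 h, the lowest of the 4 and far below the others. Nrp2 stood at 198 CPM in the knock-out library of 6 h, below the 3 others of its genotype.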

How the results depend on the processing

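Precision is limited by 1 library per genotype and time, and for Epha4, Sema3d, Sema6d and Robo3 by low counts. With the replicate block by culture time over 6 libraries, 3 members were higher and 7 lower at the adjusted limit, and over all 8 libraries 0 and 1, with 1 higher at the unadjusted limit. Over all 8 libraries without the block, 0 were higher and 0 lower at the adjusted limit and 1 higher at the unadjusted limit, where 5 were lower. With at least 10 counts in every library 0 were higher at the adjusted and 1 at the unadjusted limit, since Epha4 and Sema3d were no longer tested, and without a filter 6 were higher at the unadjusted limit, beside 3.51% of all genes. Leaving out 1 library at a time gave 0 to 1 higher and 0 to 4 lower members at the adjusted limit, and 1 to 5 higher and 6 to 9 lower at the unadjusted limit. The shares of all genes in these fits were 0.0225 to 1.4% and 0.0451 to 1.43% at the adjusted limit, and 2.64 to 5.12% and 3.08 to 4.92% at the unadjusted limit. For the culture time slope, DESeq2 called 8 rising and 6 falling, and leaving out 1 library gave 0 to 5 rising and 0 to 5 falling after adjustment and 4 to 12 rising and 4 to 13 falling before it, beside 0 to 4.64%, 0 to 3.36%, 3.39 to 19.8% and 3.57 to 17% of all genes. The interaction at an unadjusted p was called for 0 members over the 6 or all 8 libraries and with at least 10 counts in every library, 2 with DESeq2, and 0 to 11 when leaving out 1 library, beside 0.444 to 15.2% of all genes. The log2 fold change of Slit2 reversed to -0.27 over all 8 libraries, -0.15 over 7, -0.12 and -0.37 with the block over 6 and 8, -0.0061 with DESeq2, -0.12 with limma, -0.014 without a filter, and ran from -0.54 to 0.35 when leaving out 1 library, with -0.26 without the floxed library of 6 h and -0.54 without the knock-out library of 48 h. Other reversals came from leaving out 1 library. Nrp2 then ran from -0.23 to 0.050, with 0.050 without knock-out 6 h. Epha2 ran from -0.68 to 0.43, with 0.21, 0.030 and 0.43 without knock-out 6 h, knock-out 48 h and floxed 72 h. Efnb2 ran from -1.13 to 0.30, with 0.30 without floxed 72 h. The cause was not tested. Over all 8 libraries the log2 fold changes were smaller by more than 1.5 times for Unc5b (-1.12), Unc5c (-1.87), Sema6d (-1.59), Sema3a (0.58), Efna3 (-0.62), Efna1 (-0.39), Nrp2 (-0.068), Ephb4 (-0.11), Ntn1 (-0.16) and Ntn4 (-0.31). Leaving out 1 library moved Sema3a to 0.72 without knock-out 72 h, Sema3d to 0.75 without knock-out 48 h and Robo3 to -0.29 without floxed 48 h, and without knock-out 6 h Sema3f and Sema4b came close to 0.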
